A study of Mus musculus with 28 samples.

Results

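Homeobox and Pax genes that lie outside the Hox clusters were followed in maps of H3K27me3, the trimethylated lysine 27 of histone H3, from sorted mouse microglia. The set held 57 genes of the Pax, LIM, Barhl, Nkx, Dlx, Irx, Msx, Otx, Pitx, Alx, Emx, Vax, En, Gbx, Evx, Hmx, Tlx, Cux, Zfhx and Meis families, with Gsc and with Six2, Six3 and Six6. A region of the deposited count table belonged to the set when the table named a member as its nearest gene. By that rule 158 of 26326 regions belonged to 48 of the genes, and 9 genes had no region under their own name. Of the 158 regions, 37 lay within 10 kb of a transcription start site (TSS), measured by the table from the centre of the region, and 121 lay farther away. The 37 regions within 10 kb belonged to 36 genes, of which Zfhx4 had 2. They were set beside the 7746 other regions within 10 kb of a TSS.

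All microglia came from adult male wild-type C57BL/6 mice. Mice that ate 0.2% cuprizone for 4 weeks gave 3 sorted subsets: CD229-CD11c- microglia, CD229+CD11c- microglia and CD229+CD11c+ microglia. Mice on a regular diet gave the basal microglia. CD229 is a receptor of the SLAM family, CD11c is an integrin, and cuprizone is a copper chelator that kills oligodendrocytes and so demyelinates the brain. Brains of 2 to 6 mice were pooled for a sort, and the labels give the gate CD44Low CD45Low CD11bLow for basal microglia alone, so diet and sort cannot be told apart in a comparison with basal microglia. Of the 28 libraries, 14 of H3K27me3 and 14 of input, 12 of H3K27me3 had counts, 3 in each of the 4 groups. The labels do not tie replicates to separate animals, and the spread behind each p-value is that of these libraries, which may be technical.

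H3K27me3 is laid down by Polycomb repressive complex 2, and it covers silent developmental genes whose promoters are rich in CG dinucleotides. Homeobox genes encode transcription factors that bind DNA through a homeodomain and give body axes, organs and neuronal subtypes their identity. Pax genes encode a paired domain, with or without a homeodomain. These genes are among the classic Polycomb targets, since a cell keeps silent the factors of every lineage but its own.

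The 12 libraries held 7740002 to 11362168 tags in the regions. The tag PE150 stands in the titles of 2 libraries of each group and is absent from the third, which is replicate 3 in every group. Values within the tagged libraries and within the untagged ones are therefore given beside the results. No spike-in is named in the sources used here, so every level is relative to the other regions. None of 20 microglial identity genes, Cx3cr1 and P2ry12 among them, had a region within 10 kb of a TSS. At any distance 4 of the 20 had a region, 9 regions in all. A change in the share of cells that carry the mark and a change in the mark per cell cannot be told apart in pooled cells.

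The members sat in broad and strongly marked domains. Their 37 regions within 10 kb had a median length of 38.0 kb, against 7.37 kb in the other regions within 10 kb. Their median log2 enrichment over input, as the authors computed it in basal libraries that have no column of counts, was 2.16, against 1.63. The longest region, at Pax2 (chr19:44628843-44845471), ran over 217 kb, and those at En2, Lhx2, Nkx2-3 and Tlx1 over 138, 134, 96.1 and 85.1 kb. Per kilobase, the median level of the members was 4.91 CPM (tag counts scaled to library size) for CD229-CD11c- microglia, 6.49 for CD229+CD11c- microglia and 5.90 for CD229+CD11c+ microglia, against 4.33 for basal microglia. The same medians over the other regions within 10 kb were 3.28, 3.41 and 3.30, against 3.24 in basal microglia.

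The 9 genes with no region of their own, Dlx1, Dlx2, Dlx6, Pax6, Evx1, Evx2, Lhx1, Emx2 and Nkx2-1, were not free of the mark. Each was overlapped by a region that the table assigned to a neighbour, among them the antisense transcripts Dlx1as, Evx1os, Lhx1os and Emx2os, and Paupar beside Pax6. In all, a region overlapped each of the 57 genes. The centre rule also placed 13 regions of at least 20 kb beyond 10 kb although they overlapped their own gene, those of Lhx2, Lhx3, Lhx4, Dlx3, Gbx2, Nkx2-3, Tlx1, Tlx3, Otx1, Irx5, Six2, Cux2 and Pax7.

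H3K27me3 at the members had its highest group mean in CD229+CD11c- microglia at 33 of the 37 regions within 10 kb. Of the 37, 34 rose in CD229+CD11c- relative to basal microglia and 0 fell (edgeR quasi-likelihood test, Benjamini-Hochberg adjusted p under 0.05 over all regions). Of all regions, 9.52% rose and 3.47% fell, and of the other regions within 10 kb 22.4% rose and 2.62% fell. With total-count scaling 33 members rose, while over all regions 1578 rose and 3789 fell, against 2506 and 913. The median log2 fold change was 0.53 over the members, against 0.08 over the other regions within 10 kb. In 35 member regions every CD229+CD11c- library lay above every basal library, as in 2417 of the 7746 others. The regions that missed the test were those of Lhx8 and Zfhx4, with log2 fold changes of 0.17 ± 0.07 at Lhx8 and 0.12 ± 0.08 and 0.03 ± 0.33 (SE) at Zfhx4.

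The tagged and untagged libraries gave the same direction. Among the tagged libraries alone, 35 member regions rose, against 29.4% of the other regions within 10 kb. In the untagged pair, 36 of 37 member regions were higher in the CD229+CD11c- library than in the basal one, with a median difference of 0.44 on the log2 scale. Of the other regions within 10 kb 63.3% were higher in this pair, with a median difference of 0.10. With offsets fitted by loess to basal enrichment and tag density, which level the trend shared by all strongly marked regions, 18 member regions rose, against 10.6% of the others.

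**Figure D1:**
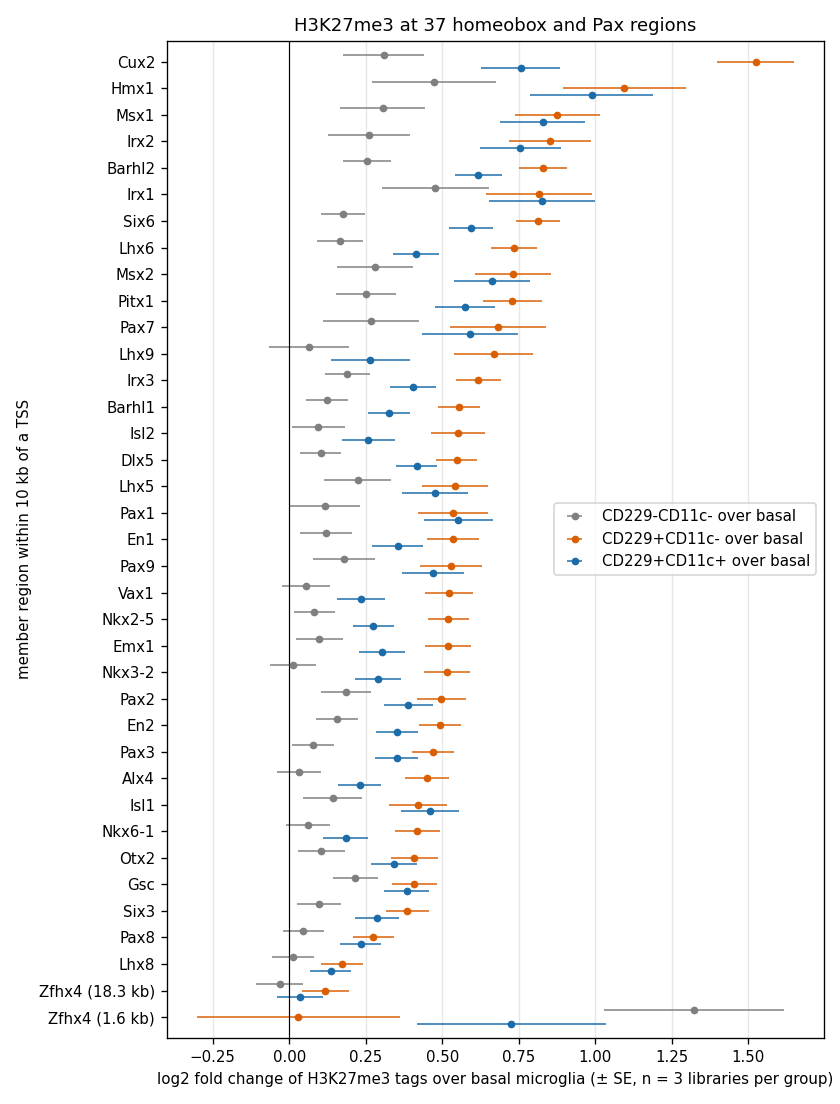
Log2 fold change of H3K27me3 tags (x axis) at the 37 member regions within 10 kb of a TSS (y axis) in CD229-CD11c-, CD229+CD11c- and CD229+CD11c+ over basal microglia, with standard errors (3 libraries per group). All 37 values of CD229+CD11c- microglia lie right of 0, from 0.03 at the shorter Zfhx4 region to 1.52 at Cux2, and most values of CD229-CD11c- microglia lie closest to 0.

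Cux2, a cut-type homeobox gene of upper-layer cortical neurons, had the largest rise of the members. Its 7.2 kb region at the start of the gene (chr5:122042739-122049936) held 45.9, 46.9 and 43.8 CPM in the CD229+CD11c- libraries, against 19.4, 13.9 and 14.3 CPM in the basal libraries. The groups did not overlap, and the log2 fold change was 1.52 ± 0.13 (SE, adjusted p = 9.6e-08). The region was short and weakly marked for a member, in the second lowest decile of basal enrichment. A 60.1 kb region inside the same gene (chr5:121945774-122005852) averaged 198 ± 18 CPM in CD229+CD11c- and 199 ± 2.94 CPM in basal microglia (SD, n = 3 each), a log2 fold change of -0.0041 ± 0.08.

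Hmx1, a factor of eye and ear development, followed. It held 219, 199.9 and 155 CPM in CD229+CD11c- microglia, against 82.9, 82.4 and 103 CPM in basal microglia (1.10 ± 0.20 on the log2 scale, adjusted p = 0.0011). Msx1, which acts in tooth and palate formation, held 212, 196 and 155 CPM, against 105, 91.9 and 110.0 CPM in basal microglia (0.88 ± 0.14, adjusted p = 0.00024). In both regions replicate 3, the untagged library, was the lowest of the CD229+CD11c- libraries, and it still lay above every basal library. Irx2, of the Iroquois family that patterns neural tissue and heart, held 137, 125 and 112 CPM, against 68.9, 60.9 and 77.7 CPM in basal microglia (0.85 ± 0.13, adjusted p = 0.00019). At Lhx8, a LIM factor of basal forebrain cholinergic neurons, the values were 205, 191 and 208 CPM in CD229+CD11c- and 185, 169.8 and 182 CPM in basal microglia. The Lhx8 groups did not overlap, but the region missed the test (0.17 ± 0.07, adjusted p = 0.11).

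**Figure D2:**
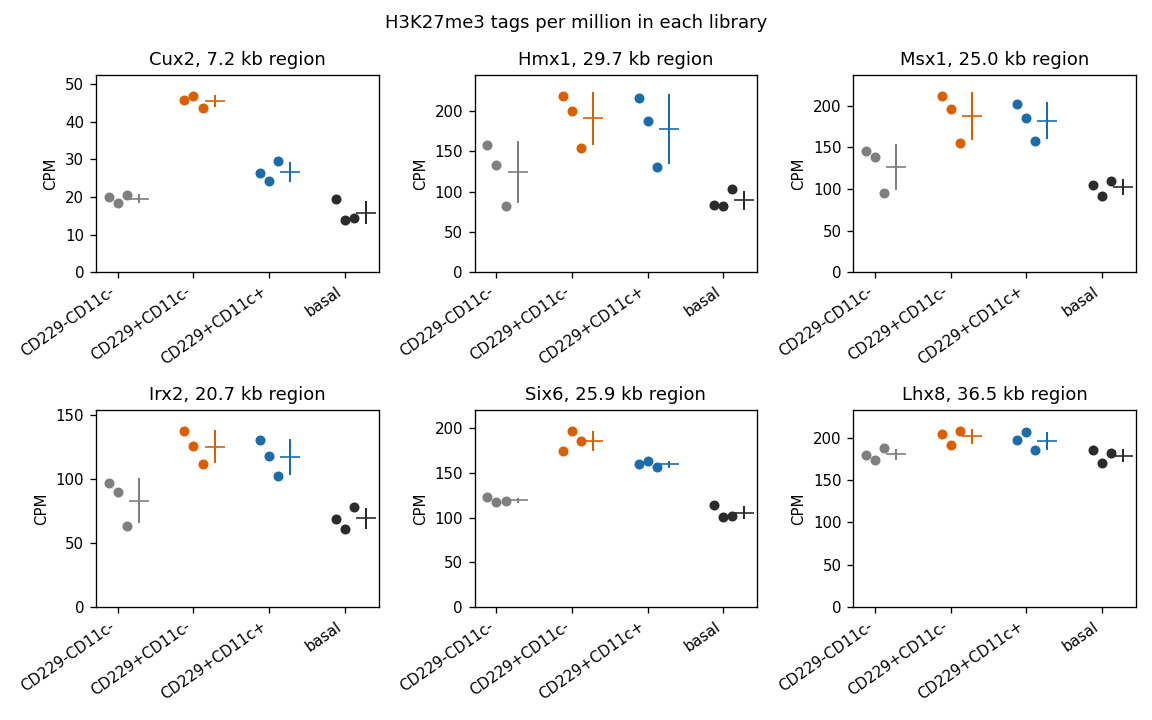
H3K27me3 tags in CPM (y axis) in each of the 12 libraries at 6 member regions, by group (x axis); points are libraries, and the bar with its line is the mean and SD. At Cux2 the CD229+CD11c- libraries stand above all others, at Hmx1, Msx1 and Irx2 replicate 3 is the lowest library of each cuprizone subset, and at Lhx8 all 12 libraries lie between 169.8 and 208 CPM.

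Promoter windows of Cux2, Six6 and Lhx8 are shown because these genes span the largest and nearly the smallest log2 fold change. For Cux2, which has a pair of listed starts, the window that lies whole inside the region is printed. The sequences below run from 250 bases before to 50 bases after the TSS in RefSeq's GRCm38.p6 annotation, with CG dinucleotides, the sites that Polycomb targets are typically rich in, in capitals.
Cux2 (chr5:122047776-122048075, minus strand, 4 CG): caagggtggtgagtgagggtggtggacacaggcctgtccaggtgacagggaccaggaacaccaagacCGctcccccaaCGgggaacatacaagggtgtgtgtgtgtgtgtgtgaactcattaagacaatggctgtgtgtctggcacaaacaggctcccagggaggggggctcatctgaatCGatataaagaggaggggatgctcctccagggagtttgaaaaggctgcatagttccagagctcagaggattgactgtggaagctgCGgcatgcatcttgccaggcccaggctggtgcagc
Six6 (chr12:72939632-72939931, plus strand, 20 CG): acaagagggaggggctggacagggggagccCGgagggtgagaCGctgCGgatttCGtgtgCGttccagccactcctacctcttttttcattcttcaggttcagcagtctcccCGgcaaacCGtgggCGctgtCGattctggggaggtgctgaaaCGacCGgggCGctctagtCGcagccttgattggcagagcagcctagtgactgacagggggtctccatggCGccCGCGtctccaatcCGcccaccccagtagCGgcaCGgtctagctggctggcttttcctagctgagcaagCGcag
Lhx8 (chr3:154330511-154330810, minus strand, 4 CG): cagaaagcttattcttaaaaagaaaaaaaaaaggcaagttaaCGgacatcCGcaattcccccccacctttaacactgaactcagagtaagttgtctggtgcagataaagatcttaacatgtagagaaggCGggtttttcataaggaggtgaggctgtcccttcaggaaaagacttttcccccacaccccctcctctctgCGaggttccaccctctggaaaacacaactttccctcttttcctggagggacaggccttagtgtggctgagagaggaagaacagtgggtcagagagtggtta

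The Six6 window held 20 CG, and that of Lhx8, with the smallest log2 fold change apart from Zfhx4, held 4. Cux2, with the largest rise, held 4 CG in the printed window and 48, the most of any member window, in that of its other start (chr5:122049802-122050101), which crosses the edge of the region. RefSeq promoters were found for 45 of the 57 members, 57 windows in all. Their median was 17 CG per window, and 43.9% held 20 or more, against a median of 7 and 26.5% over all 32851 promoters of the table. The ratio of observed to expected CG had a median of 0.747 in the members, against 0.384 over all promoters. Each of the 45 genes had at least 1 of its listed starts inside a region. CG content is a description of these windows, and its relation to the fold changes was not tested.

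The Pax regions within 10 kb moved together in CD229+CD11c- relative to basal microglia, while 0 of 13 Pax regions beyond 10 kb were called. All 6 Pax regions within 10 kb rose in CD229+CD11c- microglia, with log2 fold changes from 0.27 at Pax8, a factor of thyroid and kidney, to 0.68 at Pax7, a factor of neural crest and muscle progenitors. Pax2, of kidney and midbrain, held 1487, 1453 and 1280.0 CPM over its 217 kb in CD229+CD11c- microglia, against 991, 939 and 1059.8 CPM in basal microglia (0.50 ± 0.08, adjusted p = 0.00017). Pax1 and Pax9, a pair of factors of the vertebral column and pharyngeal pouches, rose by 0.53 ± 0.11 and 0.53 ± 0.10. Pax3, the partner of Pax7 in neural crest, rose by 0.47 ± 0.07. The regions with the longest overlap of the Pax3 and Pax8 genes were other ones, which differed by 0.0026 ± 0.08 and 0.04 ± 0.07 and were not called. The Paupar region over Pax6 (chr2:105631946-105694495), the regulator of eye and forebrain, rose by 0.65 ± 0.07.

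Among the eye and forebrain factors outside the Pax family, Six6 held 175, 197 and 185 CPM in CD229+CD11c- microglia, against 114, 101 and 102 CPM in basal microglia (0.81 ± 0.07, adjusted p = 1.9e-07). Its libraries varied little within a group, and the groups did not overlap. Six3, its relative, held 496, 515 and 439 CPM, against 401, 346 and 363 CPM in basal microglia (0.39 ± 0.07, adjusted p = 0.00062). Otx2, which specifies the forebrain and midbrain, rose by 0.41 ± 0.08, and Emx1 and Vax1, of cortex and ventral forebrain, by 0.52 ± 0.08 and 0.52 ± 0.08.

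The LIM homeobox genes, which give motor neurons and interneurons their subtype, had 6 regions within 10 kb, of which 5 rose. The exception was Lhx8. Lhx6, a factor of cortical interneurons, held 336, 349 and 308 CPM, against 202, 188 and 206 CPM in basal microglia (0.73 ± 0.07, adjusted p = 9.4e-07). Lhx9, of gonad and limb, held 262, 282 and 337 CPM, against 216, 172 and 166 CPM in basal microglia (0.67 ± 0.13, adjusted p = 0.0015). Isl1 and Isl2, of motor and sensory neurons, rose by 0.42 ± 0.10 and 0.55 ± 0.09, and Lhx5 by 0.54 ± 0.11. Lhx6 and Lhx9 thus stood at the upper end of the family and Lhx8 at its lower end.

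The Barhl, Nkx and Dlx genes rose at all 6 regions within 10 kb. Barhl2, which specifies retinal and spinal neurons, held 348, 349 and 319 CPM, against 202, 171 and 199 CPM in basal microglia (0.83 ± 0.08, adjusted p = 3.9e-07), and Barhl1 rose by 0.55 ± 0.07. The heart factor Nkx2-5, the cartilage factor Nkx3-2 and the beta-cell and motor-neuron factor Nkx6-1 rose by 0.52 ± 0.07, 0.52 ± 0.08 and 0.42 ± 0.07. Dlx5, a craniofacial and forebrain factor, held 444, 434 and 418 CPM, against 305, 289 and 293 CPM in basal microglia (0.55 ± 0.07). Each of these regions had the CD229+CD11c- libraries as its highest group by mean. Of the paired-like genes, the hindlimb factor Pitx1 rose by 0.73 ± 0.10, the organiser factor Gsc by 0.41 ± 0.07 and the limb factor Alx4 by 0.45 ± 0.07.

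Linked and paralogous pairs are set side by side here. Irx1 and Irx2, neighbours on chromosome 13, rose by 0.82 ± 0.17 and 0.85 ± 0.13, and Irx3 and the broad domain of Irx5 on chromosome 8 by 0.62 ± 0.07 and 0.50 ± 0.06. Six3 rose by 0.39 ± 0.07 and the 60.0 kb domain of its neighbour Six2, a nephron progenitor factor, by 0.45 ± 0.09. The midbrain and hindbrain factors En1 and En2, on different chromosomes, rose by 0.53 ± 0.08 and 0.49 ± 0.07, nearly the same amount.

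Of the pairs that shared a region, Dlx1 and Dlx2 lay in the Dlx1as region (chr2:71522655-71554335), which rose by 0.63 ± 0.13, and Dlx6 lay in the region of Dlx5. Evx1 and Evx2, at the edges of the HoxA and HoxD clusters, lay in the Evx1os region and in a 198 kb region assigned to Mir10b, a microRNA gene of the HoxD cluster. These regions rose by 0.56 ± 0.08 and 0.54 ± 0.07. The Emx2os region over Emx2 rose by 0.74 ± 0.09, against 0.52 ± 0.08 at Emx1. The domain of Otx1 rose by 0.40 ± 0.08, against 0.41 ± 0.08 at Otx2. The Lhx1os region over Lhx1 and the Sfta3-ps region over Nkx2-1 rose by 0.69 ± 0.09 and 0.56 ± 0.09. Over all 57 genes, 55 distinct regions gave the longest overlap with a gene, and 50 of them rose in CD229+CD11c- relative to basal microglia, against 9.52% of all regions.

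In CD229+CD11c+ relative to basal microglia, 29 of the 37 member regions rose and 0 fell. The share over all regions was 4.33%, and over the other regions within 10 kb 10%. The member median was 0.39, against 0.03 in the others, and all 37 values were above 0, as were 4241 of the 7746 others. The 8 regions that missed the test were those of Alx4, Isl2, Lhx8, Lhx9, Nkx6-1, Vax1 and Zfhx4. The largest rises were at Hmx1, Msx1, Irx1 and Cux2. Hmx1 held 216, 188 and 130.0 CPM in CD229+CD11c+ microglia, against 82.9, 82.4 and 103 CPM in basal microglia (0.99 ± 0.20, adjusted p = 0.0079). Msx1 held 201, 186 and 158 CPM, against 105, 91.9 and 110.0 CPM in basal microglia (0.83 ± 0.14, adjusted p = 0.0018). In both, the lowest CD229+CD11c+ library was still above the highest basal one.

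Irx1 held 65.9, 59.9 and 48.9 CPM in CD229+CD11c+ microglia, against 28.9, 29.4 and 39.8 CPM in basal microglia (0.83 ± 0.17, adjusted p = 0.0085). It missed the test when basal replicate 4 or CD229+CD11c+ replicate 1 was left out, with log2 fold changes of 0.76 and 0.73. Cux2 held 26.3, 24.2 and 29.5 CPM, against 19.4, 13.9 and 14.3 CPM in basal microglia (0.76 ± 0.13, adjusted p = 0.0013). The count of 29 rested on single libraries. It was 14 without basal replicate 4, 16 without CD229+CD11c+ replicate 1 and 19 without CD229+CD11c+ replicate 2. Of the other regions within 10 kb 2.9%, 3.29% and 4.48% rose in these fits in this order, against 10%. With loess offsets the member count was 16, against 6.55% of the other regions within 10 kb. Among the tagged libraries alone it was 36, against 21.1%, and in the untagged pair 36 of 37 regions were higher in CD229+CD11c+ microglia, with a median difference of 0.26. Of the other regions within 10 kb 56.3% were higher in this pair, with a median difference of 0.04.

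All 6 Pax regions and all 3 Irx regions within 10 kb rose in CD229+CD11c+ microglia as well, while 3 of the 6 LIM regions did. Pax7 held 439.7, 414 and 304 CPM in CD229+CD11c+ microglia, against 246, 247 and 275 CPM in basal microglia (0.59 ± 0.16, adjusted p = 0.035). Pax1 rose by 0.55 ± 0.11 and Pax9 by 0.47 ± 0.10. At Pax2 the libraries held 1391, 1335 and 1191 CPM, against 991, 939 and 1059.8 CPM in basal microglia (0.39 ± 0.08). Barhl2 and Six6 rose by 0.62 ± 0.08 and 0.59 ± 0.07. These comparisons with basal microglia share the 3 basal libraries.

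In CD229-CD11c- relative to basal microglia, 0 of the 37 member regions were called, and 0% of all regions and 0% of the other regions within 10 kb. The member values still leaned to one side. Of the 37, 36 were above 0, with a median of 0.14 against 0.02 in the others, and 14 had an unadjusted p under 0.05 in edgeR. Of the 7746 other regions within 10 kb, 4370 were above 0 and 370 had an unadjusted p under 0.05. DESeq2 also called 0. The 3 regions with the smallest p were the 1.6 kb region of Zfhx4, Barhl2 and Gsc. Barhl2 held 238, 228 and 216 CPM in CD229-CD11c- microglia, against 202, 171 and 199 CPM in basal microglia (0.25 ± 0.08, adjusted p = 0.98). Gsc held 178, 173 and 155 CPM, against 143, 141 and 150.1 CPM in basal microglia (0.22 ± 0.07, adjusted p = 0.98). The short Zfhx4 region held few tags, 51, 32 and 81 in CD229-CD11c- libraries, against 23, 24 and 28 in basal libraries.

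This comparison differed between the tagged and the untagged libraries. Among the tagged ones alone, 19 member regions rose, against 5.31% of the other regions within 10 kb, and the member median was 0.24. The largest of these rises were at Hmx1 (0.66 ± 0.07, adjusted p = 1.1e-11), Irx1 (0.58 ± 0.10, adjusted p = 8.3e-06) and Msx1 (0.50 ± 0.07, adjusted p = 2.2e-08). In the untagged pair, 17 of 37 member regions were higher in the CD229-CD11c- library than in the basal one, with a median difference of -0.02. Of the other regions within 10 kb 49.5% were higher in this pair, with a median difference of -0.002. At Hmx1 the CD229-CD11c- libraries held 158, 133 and 82.0 CPM, against 82.9, 82.4 and 103 CPM in the basal ones, so that the untagged CD229-CD11c- library, given last of its group, lay with the basal libraries and the tagged ones above them. Msx1 showed the same split, with 146, 139 and 94.8 CPM, against 105, 91.9 and 110.0 CPM in basal microglia. The part of the tag in this difference was not tested.

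Between the subsets from cuprizone-fed mice, CD229+CD11c- microglia stood above CD229-CD11c- microglia. Of the 37 member regions, 28 rose and 1, the short region of Zfhx4, fell. Of all regions 6.75% rose and 1.6% fell, and of the other regions within 10 kb 16.3% rose and 1.45% fell. The member median was 0.42, against 0.08. Cux2 held 45.9, 46.9 and 43.8 CPM in CD229+CD11c- microglia, against 19.9, 18.3 and 20.5 CPM in CD229-CD11c- microglia (1.21 ± 0.12, adjusted p = 4.4e-06). Six6 held 175, 197 and 185 CPM, against 123, 118 and 118 CPM in CD229-CD11c- microglia (0.64 ± 0.07, adjusted p = 8.8e-06). Lhx9 held 262, 282 and 337 CPM, against 176, 167 and 237 CPM in CD229-CD11c- microglia (0.60 ± 0.13, adjusted p = 0.0051).

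At Cux2 and Six6 the CD229-CD11c- libraries lay close to the basal ones and the CD229+CD11c- libraries well above both. At Lhx9 the gap was narrow, from 237 CPM in the highest CD229-CD11c- library to 262 CPM in the lowest CD229+CD11c- library. Irx2 held 137, 125 and 112 CPM, against 96.6, 89.3 and 63.1 CPM in CD229-CD11c- microglia (0.59 ± 0.13, adjusted p = 0.007). The short Zfhx4 region held 30, 17 and 19 tags in CD229+CD11c- libraries, against 51, 32 and 81 tags in CD229-CD11c- libraries (-1.29 ± 0.30, adjusted p = 0.0072). Its 18.3 kb neighbour near the gene's start differed by 0.15 ± 0.08. With loess offsets 3 member regions rose and 1 fell, against rises in 4.48% of the other regions within 10 kb, and Lhx9 then differed by 0.16 and missed the test.

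CD229+CD11c+ microglia lay between the other subsets. Relative to CD229-CD11c- microglia, 3 member regions rose, those of Six6, Barhl2 and Dlx5, against 0.395% of all regions and 0.891% of the other regions within 10 kb. The member median was 0.24, against 0.03, and 30 of the 37 had an unadjusted p under 0.05, against 1421 of the 7746 others. Six6 held 159.6, 163 and 156 CPM in CD229+CD11c+ microglia, against 123, 118 and 118 CPM in CD229-CD11c- microglia (0.42 ± 0.07, adjusted p = 0.0054). Barhl2 held 313, 298 and 267 CPM, against 238, 228 and 216 CPM in CD229-CD11c- microglia (0.36 ± 0.08, adjusted p = 0.03). Dlx5 held 408, 409 and 366 CPM, against 336, 317 and 299.5 CPM in CD229-CD11c- microglia (0.31 ± 0.07, adjusted p = 0.03). In each of these regions the groups did not overlap.

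Same-numbered libraries of these subsets deviated together, as did tagged libraries with different numbers. With the replicate number as a block 33 member regions rose relative to CD229-CD11c- microglia, against 13.5% of the other regions within 10 kb. The count of 3 was 1 without CD229-CD11c- replicate 2, CD229+CD11c- replicate 2, or CD229+CD11c+ replicate 1 or 2, and 5 without CD229-CD11c- replicate 1. Of the other regions within 10 kb 0.258%, 0.555%, 0.207%, 0.31% and 1.27% rose in these fits in this order, against 0.891%. Barhl2 and Dlx5 missed the test without CD229-CD11c- replicate 2 or CD229+CD11c+ replicate 1 or 2, and with loess offsets.

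Relative to CD229+CD11c- microglia, 2 member regions fell in CD229+CD11c+ microglia, those of Cux2 and Lhx6, and 0 rose. Of all regions 0.771% fell, and of the other regions within 10 kb 2%. Cux2 held 26.3, 24.2 and 29.5 CPM in CD229+CD11c+ microglia, against 45.9, 46.9 and 43.8 CPM in CD229+CD11c- microglia (-0.77 ± 0.12, adjusted p = 0.0056). Lhx6 held 283, 264 and 249 CPM, against 336, 349 and 308 CPM in CD229+CD11c- microglia (-0.32 ± 0.07, adjusted p = 0.041). The fall of Cux2 missed the test without CD229+CD11c+ replicate 1 or 2, and that of Lhx6 without any 1 of the 6 libraries compared. Of the 37 values 33 were below 0, with a median of -0.12, against -0.07 in the others, where 4986 of 7746 were below 0. With loess offsets the member median was 0.03 and 1 region fell. DESeq2 called 9 falls, against 13.2% of the other regions within 10 kb that had an adjusted p, and gave Cux2 a log2 fold change of -0.78 with no adjusted p. With the tag as a covariate 15 fell, against 14%, and among the tagged libraries alone 14, against 10.2%. Without CD229-CD11c- replicate 3, which enters only through the shared estimate of spread, 8 member regions fell. Over all regions 740 fell in that fit, against 203. The member count was 1 without basal replicate 4 or 5, CD229-CD11c- replicate 2, CD229+CD11c+ replicate 3 or any CD229+CD11c- replicate, and 0 without CD229+CD11c+ replicate 1 or 2. In the fits without CD229+CD11c+ replicate 1 and 2, 10 and 9 of all regions fell.

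Over the 37 member regions, 32 had their highest mean in CD229+CD11c- microglia, followed by CD229+CD11c+, CD229-CD11c- and basal microglia in this order. Basal microglia had the lowest mean at 36, all but the longer Zfhx4 region. In the edgeR fit of all 12 libraries, CD229-CD11c- and basal microglia were neighbours in this order with 0 of the 37 regions called, and CD229+CD11c+ and CD229+CD11c- microglia neighbours with 2. Among the tagged libraries alone these counts were 19 and 14. In 23 regions the mark rose in both CD229+ subsets relative to basal microglia and in CD229+CD11c- relative to CD229-CD11c- microglia. Of the other regions within 10 kb 10% rose in CD229+CD11c+ relative to basal microglia, so at most that share can meet all of these conditions. The orders of group means are given for the members alone, with no counterpart in other regions. Of the tags in all regions, the 37 member regions took 0.878 ± 0.042% in CD229-CD11c- libraries, 1.07 ± 0.037% in CD229+CD11c- libraries and 1.01 ± 0.048% in CD229+CD11c+ libraries. The share was 0.807 ± 0.027% in basal libraries (SD, n = 3 in each group).

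Across the 12 libraries, the member regions whose log2 CPM most resembled that of the Cux2 region were those of Lhx2, Irx5, Nkx2-5, Dlx3 and Nkx2-3, with Pearson's r of 0.990, 0.980, 0.976, 0.967 and 0.962. The libraries fall into the same 4 groups at every region, and r is given as a description.

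The regions beyond 10 kb behaved less uniformly. Of 121, 17 rose and 2 fell in CD229+CD11c- relative to basal microglia, with a median log2 fold change of 0.05. Of the other regions beyond 10 kb 3.91% rose and 3.84% fell, with a median of -0.06. Of the 13 broad regions that overlap their own gene, 11 rose, while the 60.1 kb region of Cux2 and the 22.5 kb region of Pax7 (0.31 ± 0.19) missed the test. The domain of Gbx2 (chr1:89911053-89990243), a hindbrain factor, held 507, 511 and 487 CPM in CD229+CD11c- microglia, against 307, 285 and 324 CPM in basal microglia (0.72 ± 0.07, adjusted p = 1.1e-06). The domain of Tlx3, a sensory neuron factor, held 309, 309 and 281 CPM, against 193, 176 and 195 CPM in basal microglia (0.67 ± 0.09, adjusted p = 1.2e-05). In both, every CD229+CD11c- library exceeded every basal one.

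Lhx2, which patterns cortex and eye, held 920.1, 933 and 945 CPM over 134 kb, against 691, 628 and 651 CPM in basal microglia (0.51 ± 0.06). Nkx2-3, of spleen and gut, held 793, 800.2 and 864 CPM, against 643, 536 and 541 CPM in basal microglia (0.51 ± 0.07). Tlx1, a spleen factor, held 707, 707 and 669 CPM, against 552, 508 and 506 CPM in basal microglia (0.41 ± 0.06). The longest domains thus rose by amounts near the median of the regions within 10 kb. Dlx3, Lhx3, Lhx4, Otx1, Irx5 and Six2 rose by 0.56, 0.51, 0.47, 0.40, 0.50 and 0.45 on the log2 scale. Farther out, 1 region at -64.3 kb from the start of Pitx1 rose by 0.70 ± 0.11 and 1 at 208 kb from the start of Meis2, a TALE homeobox gene, by 0.58 ± 0.08.

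The 2 falls were 1.65% of the 121 regions, against falls in 3.84% of the other regions beyond 10 kb. Both were at Lhx8, in regions 63.26 and 49.98 kb from its TSS. The first (chr3:154259911-154274697) held 29.0, 39.4 and 31.6 CPM in CD229+CD11c- microglia, against 40.2, 44.5 and 41.9 CPM in basal microglia (-0.34 ± 0.11, adjusted p = 0.033). The second (chr3:154275970-154285200) held 23.3, 21.3 and 22.2 CPM, against 27.8, 31.3 and 30.1 CPM in basal microglia (-0.42 ± 0.13, adjusted p = 0.037). The region at the start of Lhx8 missed the test in this comparison, and no gene had both a region that rose and one that fell in the same comparison. In CD229+CD11c+ relative to basal microglia 12 of the 121 regions rose and 0 fell, against rises in 1.74% of the other regions beyond 10 kb. Relative to CD229+CD11c- microglia 4 fell in CD229+CD11c+ microglia, the domains of Irx5, Lhx2, Lhx3 and Nkx2-3, with log2 fold changes of -0.27 ± 0.06, -0.28 ± 0.06, -0.31 ± 0.07 and -0.32 ± 0.07. Of the other regions beyond 10 kb 0.228% fell in this comparison.

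In 20 genes with regions at both distances, the region within 10 kb could be set beside the others of the same gene. In CD229+CD11c- relative to basal microglia, the region within 10 kb had the larger fold change than every other region of its gene in 19 of 20, with medians of 0.55 and 0.02. In CD229+CD11c+ microglia this held in 17 of 20, with medians of 0.37 and -0.01. The region within 10 kb was also longer than the median of its gene's other regions in all 20. It was more enriched in basal microglia than their median in 17. Cux2 and Six6 each had a longer region beyond 10 kb, of 60.1 and 36.3 kb. Distance, length and enrichment cannot be told apart here.

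**Figure D3:**
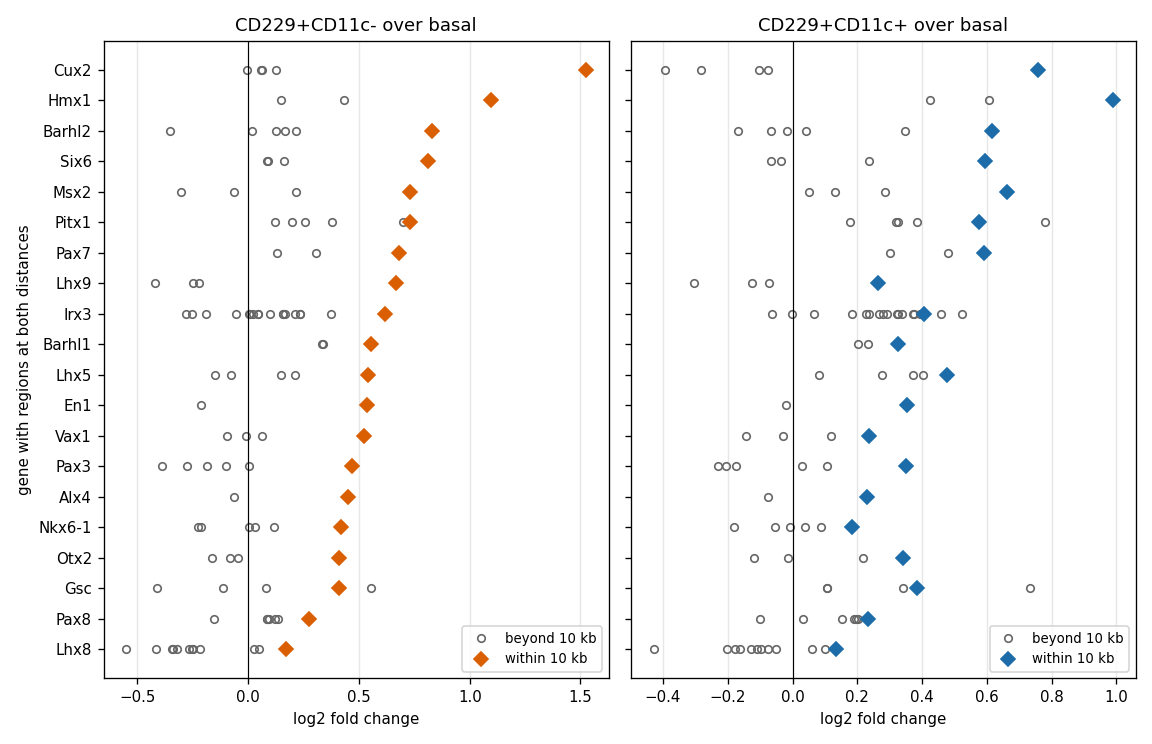
Log2 fold change over basal microglia (x axes) of CD229+CD11c- (left) and CD229+CD11c+ microglia (right) in 20 genes (y axis) with regions at both distances; diamonds are regions within 10 kb of a TSS and open circles regions beyond. In the left panel the diamond lies right of every circle of its gene in 19 of 20.

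Most members that rose were long. In CD229+CD11c- relative to basal microglia 32 of the 33 member regions within 10 kb of at least 20 kb rose, against 47.8% of the other regions of that distance and length, and 2 of the 4 shorter ones rose, against 17.96%. Beyond 10 kb 13 of 21 member regions of at least 20 kb rose, against 19.6%, and 4 of 100 shorter ones, against 2.22%. Longer regions hold more tags, and their fold changes were measured more precisely. The 33 long regions within 10 kb had a median of 2369 tags per library and a median SE of 0.08, against 154 tags and 0.15 in the 100 short ones beyond 10 kb. In the top decile of basal enrichment, 17 of 20 member regions within 10 kb rose, against 55.8% of the others, with medians of 0.53 and 0.41.

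**Figure D4:**
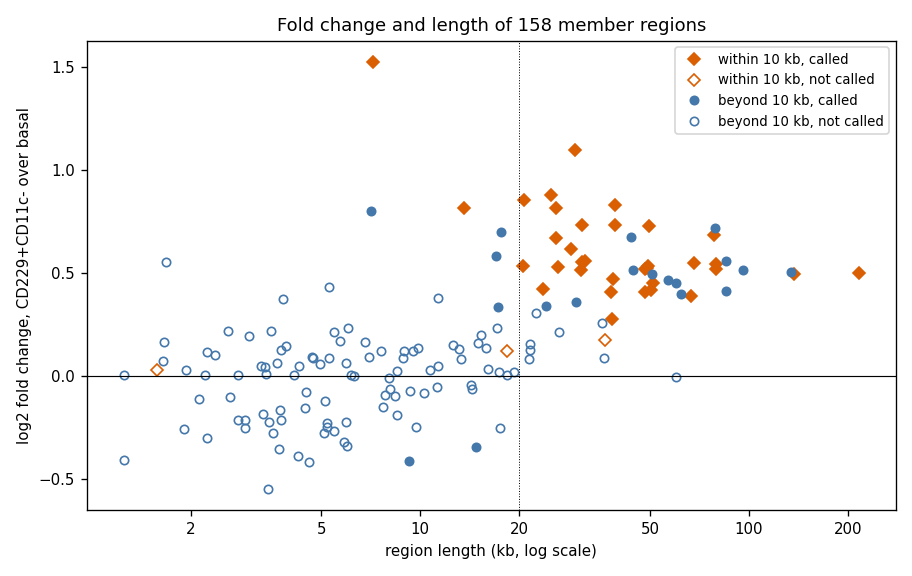
Log2 fold change of CD229+CD11c- over basal microglia (y axis) against region length in kb (x axis, log scale) for the 158 member regions; diamonds are within 10 kb of a TSS, circles beyond, filled where called at an adjusted p under 0.05, and the dotted line marks 20 kb. Called regions lie mostly right of the line; Cux2, at 7.2 kb, is the highest point.

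Other homeobox and Pax genes outside the Hox clusters moved the same way. Of a list of 114 such genes, 58 had a region within 10 kb, 62 regions in all. Of these, 41 rose and 1 fell in CD229+CD11c- relative to basal microglia, with a median log2 fold change of 0.45, and 25 rose in CD229+CD11c+ microglia, with a median of 0.25. The shares of the other regions within 10 kb that rose, given above, were 22.4% and 10%, and these include the 62 regions themselves. The largest rises were at Mkx, a tendon factor (1.02 ± 0.12), Tshz3 (0.99 ± 0.19) and Phox2a, of autonomic neurons (0.93 ± 0.12). The fall was at Crx, a photoreceptor factor (-0.69 ± 0.19, adjusted p = 0.014). The median of the 37 member regions was 0.53, and its difference from the median of this list was not tested.

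**Figure D5:**
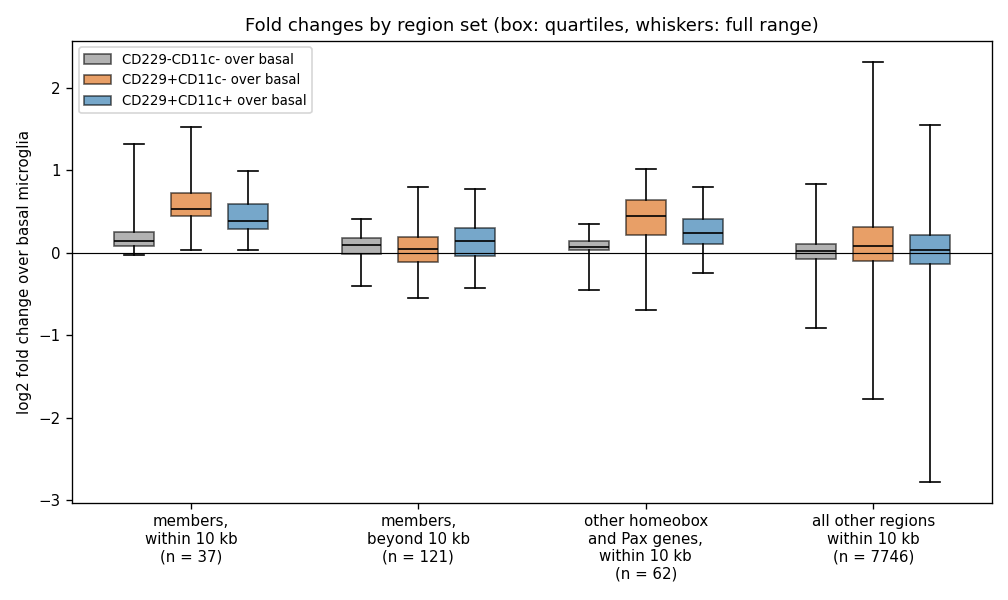
Log2 fold change (y axis) of CD229-CD11c-, CD229+CD11c- and CD229+CD11c+ over basal microglia in 4 sets of regions (x axis); boxes span the quartiles with the median as a line, and whiskers the full range. The boxes of the 37 member regions within 10 kb lie above 0 in all 3 subsets, and those of the 121 member regions beyond 10 kb lie closer to 0.

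Regions of marker genes of other cell types were counted in the same way, beside the 22.4% of other regions within 10 kb that rose. Within 10 kb of a TSS, 7 of 12 regions of neuronal markers rose in CD229+CD11c- relative to basal microglia, as did 6 of 13 of astrocytes, 4 of 6 of the oligodendrocyte lineage, 4 of 7 of lymphocytes, 2 of 6 of peripheral myeloid cells and 1 of 6 of endothelial and mural cells. The medians were 0.38, 0.30, 0.42, 0.30, 0.026 and 0.00094 in this order, and 2 of the astrocyte regions fell. Summed over the neuronal regions, the level ran from 633 to 727 CPM over CD229-CD11c- libraries, from 795 to 845 over CD229+CD11c- libraries and from 745 to 844 over CD229+CD11c+ libraries, against 608 to 645 in basal libraries. The part of other cell types in the rise of the members was not tested.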

How the data were processed

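Per the file headers, the authors used HOMER and DESeq2 on basal replicates 1 and 2 against 2 inputs in mm10 to call H3K27me3 regions, and deposited 26325 of them. They deposited raw tag counts per region for 12 libraries over these and 1 added region. The deposited region length in bp is taken as given, and the deposited log2 fold change over input gave the deciles of basal enrichment. Fastp 0.20.0, STAR 2.7.0f and Bowtie2 2.3.4.1 are also listed, with no role, per the submitters' processing notes.

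The counts entered 1 edgeR model (version 4.0.16, R 4.3.3) with group as its term, after filterByExpr (0 regions removed) and TMM scaling over regions. Its quasi-likelihood test was followed by Benjamini-Hochberg adjustment over 26326 regions in each of 6 comparisons. CPM are counts scaled to the TMM-adjusted total in regions, with a prior count of 2 on the log2 scale. The test was checked on simulated data. Alternatives were total-count scaling, DESeq2 1.42.0, a mean count of at least 100, a tag covariate, loess offsets (span 0.5), a replicate block, other distances and each library left out. Fits on the tagged libraries alone, and on the 9 cuprizone libraries alone, were added after the data were seen.

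The members, lists and tests were chosen with earlier results of these data known. The rule named, with values per library, the 4 called regions with the largest change each way in a comparison, or the 3 smallest p where none was called, the 5 longest regions and the linked pairs. Deviations of same-numbered libraries from their group means correlated by 0.283, 0.128 and 0.457 between CD229+CD11c- and CD229-CD11c- microglia. Between CD229+CD11c+ and CD229-CD11c- microglia the correlations were 0.237, 0.134 and 0.417, and between CD229+CD11c+ and CD229+CD11c- microglia 0.200, 0.083 and 0.331. Tagged libraries with different numbers also correlated, by 0.145 and 0.248 between CD229+CD11c- and CD229-CD11c- microglia and by 0.125 and 0.184 between CD229+CD11c+ and CD229-CD11c- microglia. Replicate 3 is also the untagged library in each group, so number and tag cannot be told apart there. The main fit was not paired, and the replicate number entered as a block in an alternative fit alone. No pair of libraries agreed within sampling noise. Promoter sequences are RefSeq's, in GRCm38.p6.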

Additional observations from a re-analysis of the deposited data

Results flagged for a closer look

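At 2 regions of Lhx8, the log2 fold changes of CD229+CD11c- and CD229-CD11c- microglia over basal microglia had opposite signs. The difference between the subsets passed the test (edgeR quasi-likelihood, Benjamini-Hochberg adjusted). CD229-CD11c- microglia did not pass it against basal microglia at either region, and CD229+CD11c- microglia passed it at the first alone. The region chr3:154275970-154285200 held 23.3, 21.3 and 22.2 CPM in CD229+CD11c- and 35.7, 33.9 and 27.6 CPM in CD229-CD11c- libraries, against 27.8, 31.3 and 30.1 CPM in basal libraries. The log2 fold changes over basal microglia were -0.42 ± 0.13 and 0.12 ± 0.13, and the difference between the subsets was -0.54 ± 0.13 (adjusted p = 0.01). The region chr3:154302979-154308962 held 16.5, 16.1 and 15.0 CPM in CD229+CD11c- and 22.1, 23.2 and 22.2 CPM in CD229-CD11c- libraries, against 18.2, 20.4 and 21.7 CPM in basal libraries. Its log2 fold changes over basal microglia were -0.34 ± 0.12 and 0.16 ± 0.11, and the difference between the subsets was -0.50 ± 0.12 (adjusted p = 0.0081). In both regions the CD229+CD11c- libraries lay below all others of these 3 groups. Falls in CD229+CD11c- relative to CD229-CD11c- microglia made up 1.65% of the 121 member regions beyond 10 kb. The share was 1.67% in the other regions beyond 10 kb.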

How the results depend on the processing

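Of 37 member regions, CD229-CD11c- against basal microglia gave 3 calls with the tag as a covariate and 19 among the tagged libraries alone, against 0. Of the other regions within 10 kb 0.297% and 5.31% rose in these fits, against 0%. CD229+CD11c- against basal gave 18 with loess offsets, 12 of 12 within 2 kb of a TSS and 53 at any distance, against 34. CD229+CD11c+ against basal gave 16 with loess offsets, 11 within 2 kb and 14 to 28 with 1 of the compared libraries left out, against 29. With loess offsets 10.6% of the other regions within 10 kb rose in CD229+CD11c- against basal, against 22.4%. In CD229+CD11c+ against basal 6.55% did, and 2.9% to 9.93% with 1 of the compared libraries left out, against 10%. CD229+CD11c- against CD229-CD11c- gave 4 with loess offsets, 10 within 2 kb, 45 at any distance and 36 with the replicate block, against 29. Of the other regions within 10 kb 4.48% rose with loess offsets and 27.1% with the block, against 16.3%. The 28 rises among these member calls became 21 to 31 with 1 of the compared libraries left out. Of the other regions within 10 kb 12% to 18.5% rose in those fits. CD229+CD11c+ against CD229-CD11c- gave 8 with DESeq2, 30 with the tag covariate and 1 with loess offsets, against 3. It gave 33 with the replicate block and 25 among the tagged libraries alone. Of the other regions within 10 kb 2.52%, 10.9%, 0.594%, 13.5% and 6.25% rose in these fits in this order, against 0.891%. The same comparison gave 0 within 2 kb and 1 to 5 with 1 of the compared libraries left out. In the fits with 1 library left out, 0.207% to 1.9% of the other regions within 10 kb rose. CD229+CD11c+ against CD229+CD11c- gave 1 with total-count scaling, with loess offsets, within 2 kb and in the 9 cuprizone libraries alone, 9 with DESeq2, 15 with the tag covariate, 19 with the replicate block, 14 among the tagged libraries alone, 6 at any distance and 0 to 1 with 1 of the compared libraries left out, against 2. In this last comparison 14% of the other regions within 10 kb fell with the tag covariate and 10.2% among the tagged libraries alone, against 2%. With DESeq2 13.2% of those with an adjusted p fell. With 1 of the compared libraries left out 9 to 154 of all regions fell, against 203. Counts within 2 kb and at any distance cover fewer or more regions by construction. For the other counts the cause was not tested. Over all regions, the block gave 3155 rises in CD229+CD11c- against CD229-CD11c-, against 1777, and 1554 in CD229+CD11c+ against CD229-CD11c-, against 104, and it gave 1713 falls in CD229+CD11c+ against CD229+CD11c-, against 203.

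Tag shares are shares of the tags in regions. Member regions at any distance took 1.66% of them in CD229-CD11c- libraries, 1.93% in CD229+CD11c- libraries and 1.84% in CD229+CD11c+ libraries, against 1.56% in basal ones. Of the tags in regions within 10 kb of a TSS, member regions took 2.37%, 2.68% and 2.64%, against 2.21%. Over all alternative fits, values of the named regions called in the main fit kept direction and call 229 times. They lost the call 23 times, with 0 reversed. These regions were named for large called changes, so the tally does not measure how stable the members are. Named regions without a call in the main fit were left out of it. Of those, Barhl2 and Gsc were called in CD229-CD11c- against basal microglia among the tagged libraries alone (edgeR quasi-likelihood, adjusted p = 8.7e-05 and 0.0048). DESeq2 gave no adjusted p for Cux2 in CD229+CD11c+ against CD229+CD11c- microglia. Among the lost calls, Dlx5 in CD229+CD11c+ against CD229-CD11c- microglia missed the test with total-count scaling (0.27). Lhx6 in CD229+CD11c+ against CD229+CD11c- microglia missed it too (-0.25). Total-count scaling moved the median of all regions by -0.14 in CD229+CD11c- against basal microglia, where 33 members rose, against 34. It moved that median by -0.11 in CD229+CD11c- against CD229-CD11c- microglia, where 21 members rose, against 28. In CD229+CD11c+ against basal microglia 23 members rose with this scaling, against 29. Of the other regions within 10 kb 15%, 10.1% and 6.27% rose in this order, against 22.4%, 16.3% and 10%. Over all regions it gave 1059 rises and 1697 falls in CD229+CD11c- against CD229-CD11c-, against 1777 and 422, 687 and 796 in CD229+CD11c+ against basal, against 1139 and 386, and 60 and 50 in CD229+CD11c+ against CD229-CD11c-, against 104 and 40. Short regions limit precision, as the 1.6 kb Zfhx4 region with few tags per library shows.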
